A study of Homo sapiens with 12 samples.

Results

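EHF is an ETS-family transcription factor of epithelial cells and CDX1 is a caudal homeobox transcription factor of the intestine. The counts described here lie over the exons of these genes in HCT116 cells that had been given them. They came from ATAC-seq, in which the Tn5 transposase cuts accessible DNA and leaves adapters, so that reads gather over open chromatin. Members were all regions of the count table inside a window drawn around the coding exons of each gene (hg38); the first and last of them spanned chr11:34642588-34658939 for EHF and chr5:150166808-150183747 for CDX1. This gave 8 regions for EHF and 3 for CDX1, 11 of 30170 regions in all.

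HCT116 is an established, poorly differentiated human colorectal carcinoma line. There were 4 lines with 3 libraries each, 12 in all: empty vector (EV), EHF, CDX1 and EHF+CDX1. Per the study's methods, EHF was transfected as a pcDNA3.1 plasmid followed by isolation of geneticin-resistant clones, whereas CDX1 was delivered by an MSCV-IRES-GFP retrovirus and GFP-positive cells were collected by sorting. The EHF+CDX1 cells derive from the CDX1 line by transfection with the EHF plasmid and selection of resistant clones. The vectors carry strong viral promoters, and a selected clone is a limited model of the parental population. Nothing stated that the 3 libraries of a line came from separate cultures, so p-values measure the spread between libraries, which may be technical. Library totals were 567366 to 2443334 counts.

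In their normal setting, ETS factors such as EHF bind DNA through a winged helix-turn-helix ETS domain, and EHF also has a pointed domain. CDX1 binds AT-rich sites through its homeodomain and is known for a role in intestinal identity and enterocyte differentiation. A copy of either gene brought in as cDNA holds exons joined without introns, and reads from it map to the exons of the endogenous gene. Reads of the introduced and the endogenous copy, the number of copies, and their accessibility cannot be told apart in these counts.

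The count regions followed the coding exons. Against GENCODE 44, each of the 8 coding exons of EHF (exons 2 to 9 of ENST00000257831.8) held exactly 1 region, and the noncoding exon 1 held none. The regions covered 833 of 900 coding bases (92.6%) and reached only 11 bases past the coding sequence in the last exon, whose 3′ untranslated part is 4360 bases long. Each of the 3 CDX1 exons (ENST00000231656.13) held 1 region, and these covered 585 of 795 coding bases (73.6%). The CDX1 exon 1 and exon 3 regions also held 69 and 70 exonic bases outside the coding sequence. Sequences are shown for the EHF exon with most counts (exon 3), the EHF exon with the lowest count density (exon 7), EHF exon 8 and CDX1 exon 2. They were read from hg38 on the plus strand, with coding bases in capitals and intron bases in lower case.
EHF exon 3, chr11:34646463-34646675: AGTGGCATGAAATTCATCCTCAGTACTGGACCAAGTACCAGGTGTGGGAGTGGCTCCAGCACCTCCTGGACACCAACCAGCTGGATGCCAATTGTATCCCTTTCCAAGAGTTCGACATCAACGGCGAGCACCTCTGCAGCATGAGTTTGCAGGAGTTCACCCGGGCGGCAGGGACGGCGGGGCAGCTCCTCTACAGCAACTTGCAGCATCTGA
EHF exon 7, chr11:34656846-34656998: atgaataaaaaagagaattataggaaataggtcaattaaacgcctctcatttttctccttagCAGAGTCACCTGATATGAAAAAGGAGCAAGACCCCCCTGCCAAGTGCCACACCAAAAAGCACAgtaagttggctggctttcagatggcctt
EHF exon 8, chr11:34658533-34658694: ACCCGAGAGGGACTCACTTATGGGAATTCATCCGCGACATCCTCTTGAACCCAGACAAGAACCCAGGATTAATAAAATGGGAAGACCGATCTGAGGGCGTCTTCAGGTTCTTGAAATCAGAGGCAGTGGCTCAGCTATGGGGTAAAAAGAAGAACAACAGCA
CDX1 exon 2, chr5:150182753-150182920: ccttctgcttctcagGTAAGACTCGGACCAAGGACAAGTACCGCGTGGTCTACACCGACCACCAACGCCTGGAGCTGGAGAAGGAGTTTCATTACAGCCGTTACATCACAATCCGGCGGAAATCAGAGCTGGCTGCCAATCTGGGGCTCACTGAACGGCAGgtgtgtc
The EHF exon 3 region encodes residues 41 to 112, in the part of the protein that holds the pointed domain, and the exon 8 region encodes residues 203 to 257, where the ETS domain begins. The CDX1 exon 2 region encodes residues 149 to 197, within the part that holds the homeodomain. The exon 3 and exon 8 regions were wholly exonic. The exon 7 region held only 63 exonic bases, with 62 intron bases before and 28 after them, and the CDX1 exon 2 region carried 15 intron bases before and 7 after the exon.

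EHF exon counts were high only in the lines given EHF. The EHF line held 741708, 543188 and 1536042 counts over the 8 regions in replicates 1 to 3, and the EHF+CDX1 line held 759842, 91907 and 615080. The EV line held 100, 33 and 84 counts and the CDX1 line 38, 48 and 30. The lowest library given EHF was 919-fold above the highest library not given it in raw counts, 353-fold relative to other autosomal counts and 178-fold with mitochondrial matches left out of those, so these sets of libraries did not overlap. The exon 3 region was the most counted of all regions in each EHF library, with 226332, 174139 and 454272 counts.

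CDX1 exon counts were likewise high only in the lines given CDX1. The CDX1 line held 544606, 524981 and 1916479 counts over its 3 regions, and the EHF+CDX1 line held 545352, 77147 and 310557. The EV line held 96, 18 and 35 counts and the EHF line 32, 104 and 39. The lowest library given CDX1 was 742-fold above the highest not given it in raw counts, 308-fold relative to other autosomal counts and 183-fold without mitochondrial matches. The 3 CDX1 regions were the 3 most counted of all regions in each CDX1 library. EHF and CDX1 regions together took 34.7% to 78.4% of all counts in the libraries of the EHF and CDX1 lines. In the EHF+CDX1 line they took 61.1% in replicate 1 but 9.99% in replicate 2, which stood apart (95% Wilson interval 9.95% to 10.04%, counting error only).

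**Figure D1:**
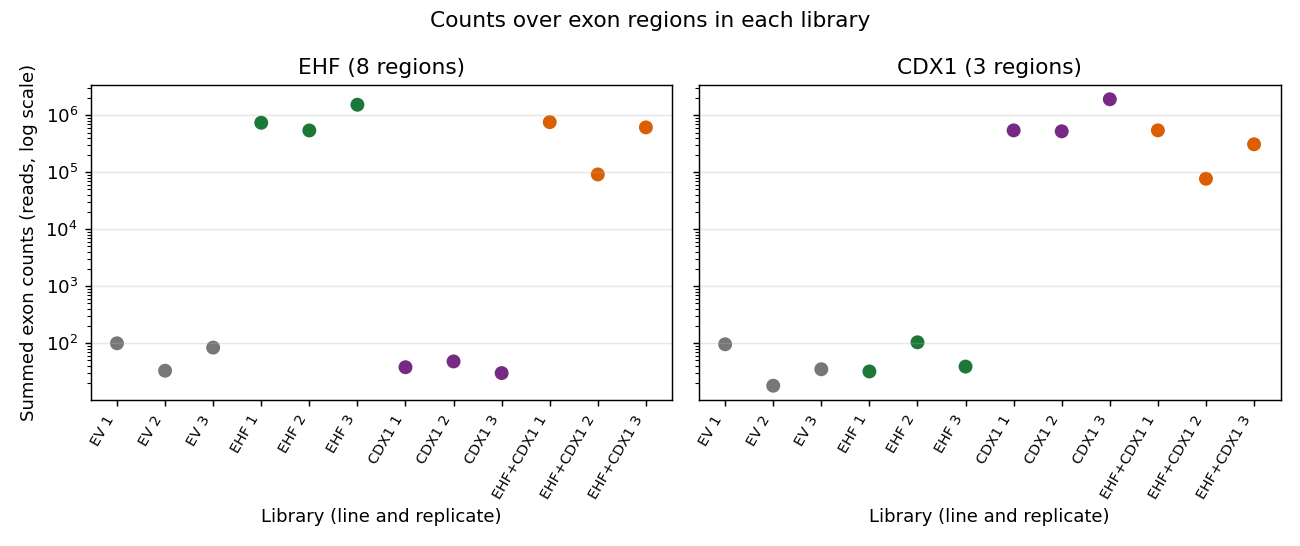
Summed exon counts of EHF (left, 8 regions) and CDX1 (right, 3 regions) in each of the 12 libraries, on a log axis, coloured by line. Libraries given the gene sit between 91907 and 1536042 counts for EHF and between 77147 and 1916479 for CDX1, and the others at 30 to 100 and 18 to 104.

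Region by region, the comparisons with EV used edgeR's quasi-likelihood test with Benjamini-Hochberg adjustment over 30154 regions, a threshold of 0.05 and log2 fold changes. Per the study's methods, regions were merged from peaks of all samples, so a member region could enter through the libraries given the gene. Calls against lines without the gene are thus no independent support for a difference, and their values describe its size. All 8 EHF regions rose from EV to EHF+CDX1 cells, with log2 fold changes of 10.85 to 12.29 and adjusted p of 0.000441 to 0.0114. All 3 CDX1 regions rose in the same comparison, with 11.48 to 11.97 and adjusted p of 0.00658 to 0.0163. Over all regions, 2.57% were called in EHF+CDX1 against EV, 776 regions. Without EHF+CDX1 replicate 2 this was 60 of 27861, and without EV replicate 1, 2 or 3 it was 384, 145 or 335. In EHF against EV, 3 of 8 EHF regions were called higher, those over exons 2, 3 and 9, against 0.00995% of all regions (these same 3 regions). The log2 fold changes of all 8 were 12.13 to 13.52, and the unadjusted p were 2.28e-07 to 4.49e-05.

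In CDX1 against EV, 0 of 3 CDX1 regions were called by edgeR, and 0% of all regions were called. Their log2 fold changes were 13.78 to 14.29, with standard errors of 1.75 to 1.98 and adjusted p of 0.172 to 0.312 (unadjusted, 3 of 3 under 0.05). DESeq2 called 3 of 3. Libraries of a line differed from each other several-fold over these regions, as given below. The number of calls against EV depended on which libraries entered the fit. It ran from 0 to 8 for EHF in the EHF line (0 without EV replicate 3 or CDX1 replicate 2) and from 0 to 3 for CDX1 in the CDX1 line (3 without EV replicate 2, CDX1 replicate 3, or replicate 1 or 2 of the EHF+CDX1 line).

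For the gene that EHF+CDX1 cells had and the compared line lacked, all regions were called, with the same limit as for the calls against EV. In EHF+CDX1 against CDX1 all 8 EHF regions rose, with log2 fold changes of 12.72 to 13.86, where 2.60% of all regions were called. In EHF+CDX1 against EHF all 3 CDX1 regions rose, with 12.27 to 12.58, where 4.35% of all regions were called. Without EHF+CDX1 replicate 2, calls over all regions were 59 and 74 of 27861 in these comparisons.

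To compare dose between lines, the summed exon counts were divided by the counts in the other autosomal regions of the same library. The EHF line gave 1.22, 0.566 and 2.31 EHF counts per other autosomal count, and the EHF+CDX1 line gave 0.976, 0.0636 and 1.06. The EHF+CDX1 libraries lay partly below and partly within the range of the EHF line. The geometric mean was 2.89-fold lower in the EHF+CDX1 line, a log2 difference of -1.53 with a standard error of 1.46 (n = 3 and 3, two-sided exact permutation test, p = 0.4). The smallest p this design allows is 0.1. Without EHF+CDX1 replicate 2 the log2 difference was -0.20 with a standard error of 0.59, so its size depended strongly on that library. This fit kept EHF replicate 2, the lowest library of the EHF line at 0.566. Without EHF+CDX1 replicate 1 or 3 the log2 difference was -2.17 or -2.23. Without EHF replicate 1 or 3 it was -1.50 or -1.04. Without EHF replicate 2 it was -2.05, with no overlap between the lines.

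CDX1 in the CDX1 line gave 0.837, 0.593 and 3.90 counts per other autosomal count, and the EHF+CDX1 line gave 0.700, 0.0533 and 0.537. Replicate 1 of the EHF+CDX1 line lay above the lowest CDX1 library and the other two below all of them. The geometric mean was 4.59-fold lower in the EHF+CDX1 line, a log2 difference of -2.20 with a standard error of 1.45 (n = 3 and 3, two-sided exact permutation test, p = 0.2). Without EHF+CDX1 replicate 2 it was -1.02 with a standard error of 0.86, and without CDX1 replicate 3 it was -1.37. Without EHF+CDX1 replicate 1 or CDX1 replicate 2 it was -2.88 or -2.73, with no overlap between the lines. With 3 libraries against 3 this test cannot give a p under 0.1, so it could not call either dose difference at 0.05. It therefore does not show that the doses were alike.

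**Figure D2:**
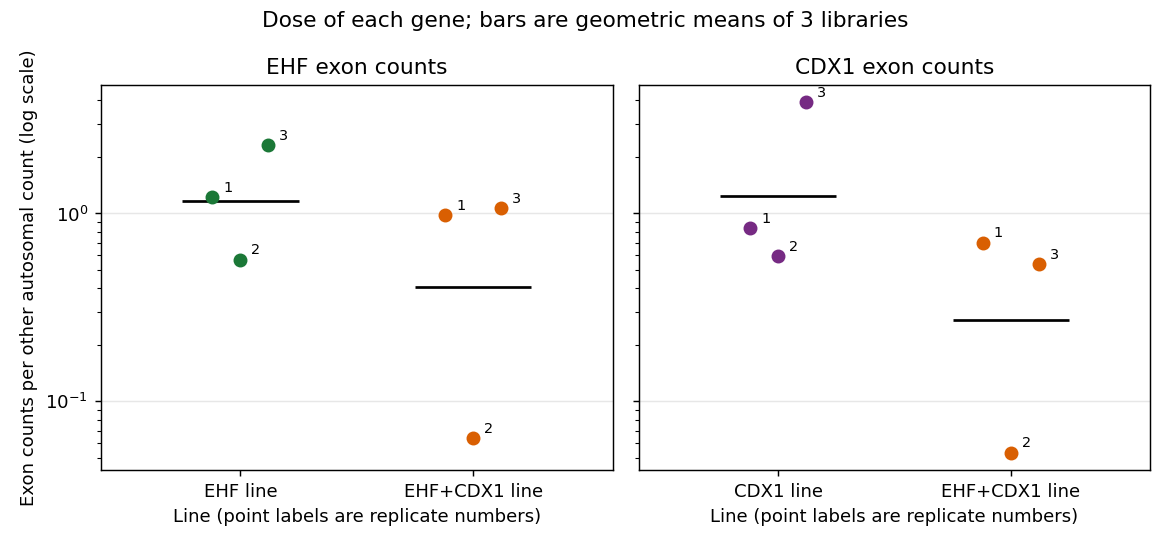
Exon counts per other autosomal count (log axis) for EHF in the EHF and EHF+CDX1 lines (left) and for CDX1 in the CDX1 and EHF+CDX1 lines (right), each point 1 library labelled with its replicate number and each bar a geometric mean of 3. Replicate 2 is the lowest in every column, and EHF+CDX1 replicate 2 lies at 0.0636 for EHF and 0.0533 for CDX1.

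The region test compared dose exon by exon. In EHF+CDX1 against EHF, 0 of 8 EHF regions were called (log2 fold changes -1.28 to -1.12, edgeR adjusted p 0.459 to 0.631) and 0 of 8 had an unadjusted p under 0.05. In EHF+CDX1 against CDX1, 0 of 3 CDX1 regions were called (-2.38 to -2.30, edgeR adjusted p 0.289 to 0.372) and 0 of 3 had an unadjusted p under 0.05. limma voom with quantile normalisation called 7 EHF and 2 CDX1 regions in these comparisons, all lower, and DESeq2 called 0 of each. Over all 30154 regions, edgeR called 1311 (4.35%) and 783 (2.60%) in these comparisons, limma voom called 1115 and 1028, and DESeq2 called 152 and 80. With the replicate number as a block, edgeR called 8 of 8 EHF and 3 of 3 CDX1 regions, all lower. That fit called 1796 and 1243 of all 30154 regions. Each of the 12 libraries correlated best, on average, with its own number, though no label says that a number marks a shared batch. Whether the exon regions were called lower by edgeR thus depended on pairing by number, which is not settled.

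Counts per other autosomal count varied 4.07-fold among EHF libraries, 6.57-fold among CDX1 libraries, and 16.7-fold (EHF) and 13.1-fold (CDX1) among EHF+CDX1 libraries. Regions matching mitochondrial DNA took 38.5% of the other autosomal counts in EHF+CDX1 replicate 2 and 53.2% to 72.6% in the remaining libraries. With those regions left out of the denominator, the EHF counts per other autosomal count were 2.10, 0.103 and 2.48 in the EHF+CDX1 line and 3.14, 1.21 and 6.74 in the EHF line. EHF+CDX1 replicate 2 thus remained lowest. On this denominator the log2 dose difference was -1.86 for EHF (standard error 1.65, exact permutation test, p = 0.4). For CDX1 it was -2.60 (standard error 1.62, exact permutation test, p = 0.2). Among EHF+CDX1 libraries the counts then varied 24.0-fold for EHF and 17.3-fold for CDX1. Why the mitochondrial share differed in EHF+CDX1 replicate 2 was not tested.

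Over all 3 EHF+CDX1 libraries, the ratio of the genes to each other varied less than either dose, a contrast that rested on replicate 2. Both doses of a library share a denominator, which cancels in the ratio. The ratio of EHF to CDX1 counts was 1.39, 1.19 and 1.98 in replicates 1 to 3, with a mean of 1.52 ± 0.41 (SD, n = 3). It ranged 1.66-fold, while the doses ranged 16.7-fold and 13.1-fold over the same libraries. Without replicate 2 the ratio ranged 1.42-fold and no longer varied less than the doses. Those of replicates 1 and 3 were 0.976 and 1.06 for EHF and 0.700 and 0.537 for CDX1. Since the genes differ in the bases covered, the ratio per exonic base was 1.19, 1.02 and 1.69. Taking only the most counted region of each gene, EHF exon 3 and CDX1 exon 1, it was 1.05, 0.865 and 1.41. EHF was thus higher in total counts in 3 of 3 libraries, but on the most counted regions in 2 of 3.

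The profile over exons was nearly the same in each library given the gene. In the EHF line exon 3 took 30.7% ± 1.25 (SD, n = 3) of EHF counts, and in the EHF+CDX1 line 31.1% ± 1.62. Exon 8 took 22.0% ± 0.36 and 21.3% ± 1.28, and exon 7, the lowest, 4.28% ± 0.26 and 4.24% ± 0.081. For CDX1, exon 1 took 42.6% ± 1.77 in the CDX1 line and 42.5% ± 1.80 in the EHF+CDX1 line, and exon 2 took 17.8% ± 0.70 and 18.2% ± 1.52.

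Over the 11 regions, the largest difference in mean share between double and single lines was 0.65 percentage points, at EHF exon 8. No region's share differed by more than 1.19-fold between its highest and lowest library. Exon 4 of EHF took 4.65% ± 0.13 in the EHF line and 5.02% ± 0.097 in the EHF+CDX1 line without overlap (exact permutation test, p = 0.1, the smallest possible). With Benjamini-Hochberg adjustment over 11 regions its exact permutation p was 0.99. The EHF+CDX1 replicate 2 library, whose dose stood apart, kept this profile: EHF exon 3 held 29761 of its 91907 EHF counts.

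**Figure D3:**
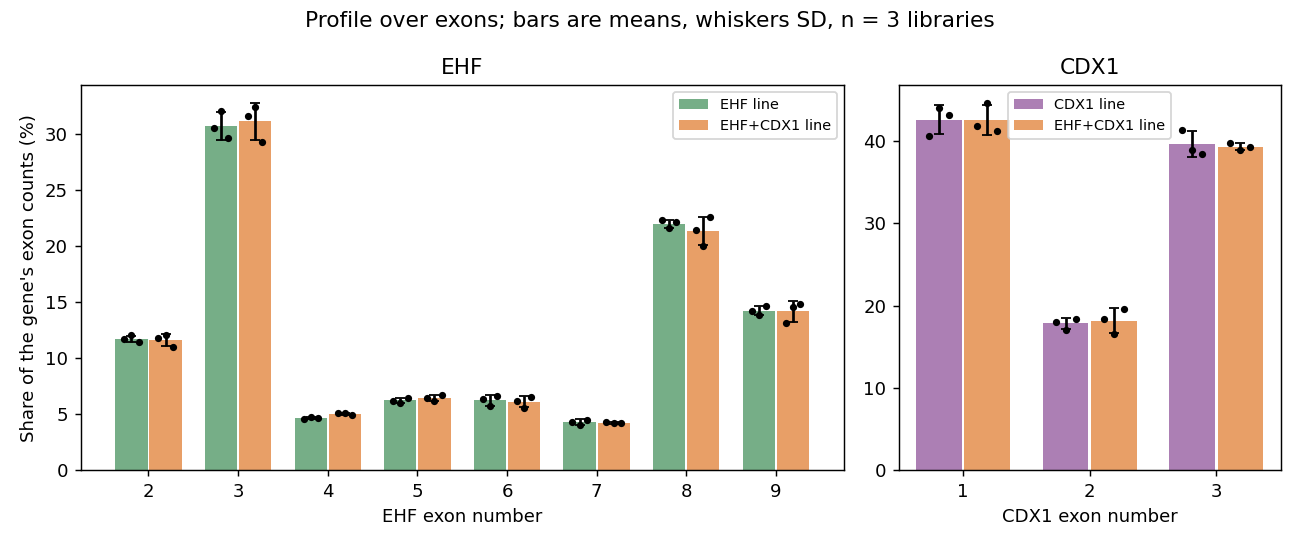
Share of each gene's exon counts in each exon (%), for EHF exons 2 to 9 (left) and CDX1 exons 1 to 3 (right), with bars for means, whiskers for SD and points for the 3 libraries of each line. The bars of single and EHF+CDX1 lines differ by at most 0.65 percentage points.

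Per exonic base, the EHF exons differed less than in their shares. Counts per exonic base were set against the gene's mean in each of 6 libraries given it. EHF regions with 63 to 69 exonic bases, over exons 4 to 7, had 0.57 to 0.78 times the mean density. Exon 2, with 100 exonic bases, had 0.99, and exons 9, 8 and 3, with 108, 162 and 213, had 1.11, 1.13 and 1.23. EHF density thus differed 2.14-fold between exon 7 and exon 3, and it was lower over the regions with fewer exonic bases. CDX1 regions ranged from 0.89 over exon 2 (146 exonic bases) to 1.11 over exon 3 (257 bases), a 1.24-fold range, and exon 1 with 321 bases had 0.96.

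**Figure D4:**
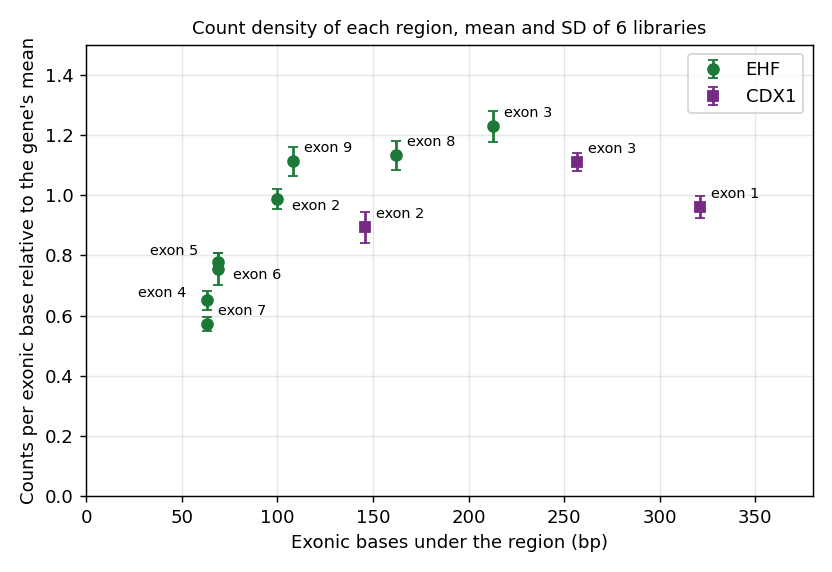
Counts per exonic base of each region relative to the mean of its gene, against the exonic bases under the region (bp); points are means and whiskers SD of 6 libraries given the gene. EHF exons 4 to 7 lie at 0.57 to 0.78 and exon 3 at 1.23.

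Regions beside the exons did not share these counts. Within 50 kb of each window lay 3 regions over no exon: for EHF 2 upstream of the gene and 1 downstream, all intergenic, and for CDX1 1 in an intron of PDGFRB, a platelet-derived growth factor receptor gene, and 2 upstream of CDX1. Together the EHF flanking regions held 13 to 35 counts in the EHF line and 18 to 96 in the EHF+CDX1 line. Per base, the EHF exons were 339-fold to 30195-fold above the flanking regions in libraries given EHF, and the CDX1 exons 1473-fold to 63549-fold above theirs in libraries given CDX1. In libraries not given the gene the same ratio was 0.42 to 5.94 for EHF and 0.52 to 3.68 for CDX1.

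Among the flanking regions, 1 of 3 EHF regions and 0 of 3 CDX1 regions were called in EHF+CDX1 against EV, where 2.57% of all regions were called. The EHF one was intergenic, at chr11:34600678-34600828, upstream of the EHF start. It held 0, 4 and 0 counts in EV, 4, 8 and 3 in EHF, 1, 1 and 2 in CDX1, and 12, 56 and 3 in EHF+CDX1 libraries. Its log2 fold change was 2.61 ± 0.76 (SE; edgeR, adjusted p = 0.0389). It was also called against the CDX1 line, at 2.86 ± 0.75 (SE; edgeR, adjusted p = 0.0179), and not against the EHF line, at 1.31 ± 0.60 (adjusted p = 0.196). These are low counts, the lines overlapped, and the call was lost without EHF+CDX1 replicate 1 or 2 or without EV replicate 1 or 3.

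**Figure D5:**
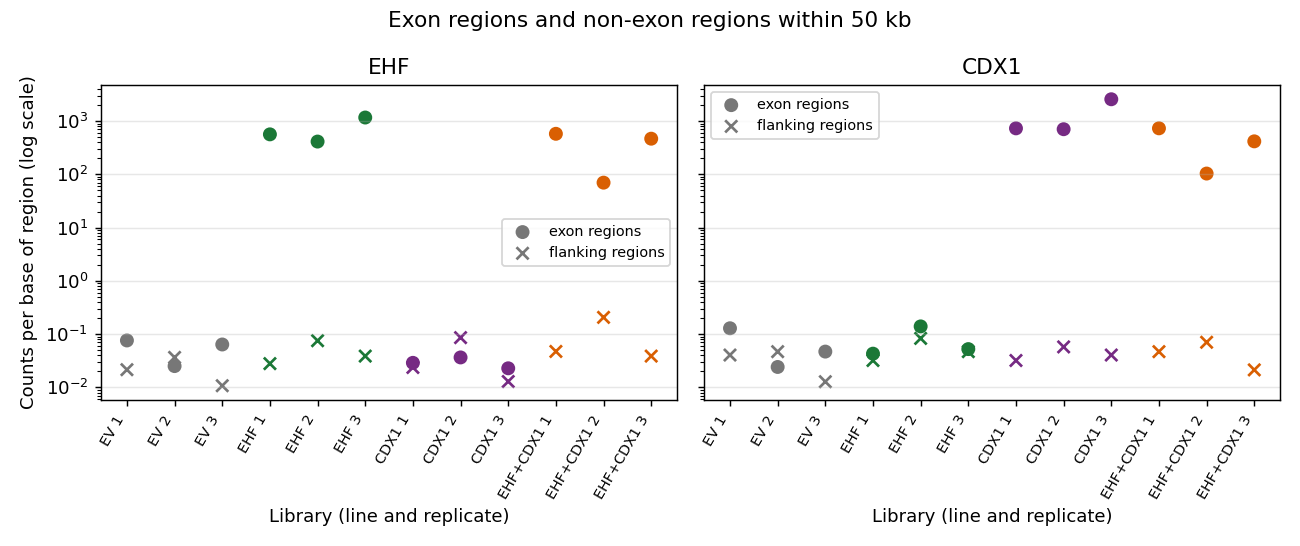
Counts per base over exon regions (circles) and over the 3 non-exon regions within 50 kb (crosses) of EHF (left) and CDX1 (right) in each library, on a log axis. Exons exceed flanking regions by at least 339-fold in libraries given the gene, and lie at 0.42 to 5.94 times their density in the others.

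Libraries of lines not given a gene still held a few counts over its exons. They summed to 333 counts for EHF over 6 libraries, 0.00777% of all EHF counts, and to 324 counts for CDX1, 0.00827%. EHF counts in the CDX1 line were 58.4, 54.2 and 61.0 per 1000000 other autosomal counts, and in EV 180.3, 34.2 and 159.7, so the lines overlapped (log2 difference -0.78 with a standard error of 0.77, exact permutation test, p = 0.4, n = 3 and 3), and leaving out EV libraries gave -1.55 to -0.35. CDX1 counts in the EHF line were 52.7, 108.4 and 58.6, and in EV 173.0, 18.7 and 66.5 (log2 difference 0.21 with a standard error of 0.99, exact permutation test, p = 1, n = 3 and 3). The sign of the CDX1 difference turned when mitochondrial matches were left out of the denominator.

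In profile, these few counts were spread over the exons much as in the carriers for CDX1, and less so for EHF. Exons 1, 2 and 3 of CDX1 held 41.0%, 19.4% and 39.5% of the summed counts, all within the range of libraries given CDX1. Of EHF, exon 3 held 26.4% (88 counts) against 29.3% to 32.4% in libraries given EHF, and exon 7 held 8.11% (27 counts) against 3.99% to 4.51%. Only exon 9 of EHF, with 14.1%, lay within the range of the carriers. The region test called 0 of 8 EHF regions in CDX1 against EV and 0 of 3 CDX1 regions in EHF against EV (edgeR, 0 under an unadjusted p of 0.05 in either). Over all regions it called 0% and 0.00995% in these comparisons, so the lack of calls does not set the members apart.

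Of the related genes, which are other caudal, ETS or intestinal transcription factors, only CDX2 (2 regions) and ELF3 (3 regions) had exon regions. CDX4, ELF5, GATA6 and ISX had none. Of these 5 regions, 1 was called in EHF+CDX1 against EV and 1 against EHF, where 2.57% and 4.35% of all regions were called. It was the same region, over CDX2, the caudal factor that specifies intestine, at chr13:27960837-27960987, with 1, 0 and 0 counts in EV, 1, 3 and 0 in EHF, 2, 5 and 0 in CDX1, and 8, 47 and 6 in EHF+CDX1 libraries. The EHF+CDX1 libraries lay above all others (log2 fold change 4.13 ± 1.07, SE; edgeR, adjusted p = 0.0174), and the call was lost without EHF+CDX1 replicate 2, EV replicate 2 or EV replicate 3. Against the EHF line the same region was called at 2.99 ± 0.82 (SE; edgeR, adjusted p = 0.0175), and against the CDX1 line it was at 2.04 ± 0.76 (adjusted p = 0.12). The 3 ELF3 regions, over an epithelial ETS factor gene, had 0 calls, with log2 fold changes of 0.66 to 1.08 and unadjusted p of 0.138 to 0.294.

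Regions most like the exon counts over the libraries were picked as the highest of 2367 correlations for each gene, so their r is high by selection. By Pearson r of log2 counts relative to other autosomal counts over 12 libraries, among 2367 autosomal regions with a mean of at least 20 counts, EHF was followed most closely by regions at USP36 (r = 0.91), CCM2 (0.91) and RPL30 (0.91), and CDX1 by regions at HGH1 (0.82), GNA12 (0.81) and PELI1 (0.80). The 12 libraries fall into 6 given the gene and 6 not, so each value rests partly on the difference between these sets. Within the 6 libraries given EHF, r was 0.48, 0.51 and -0.83, and within the 6 given CDX1 it was -0.83, 0.43 and -0.60. Within the 6 libraries not given the gene, r was 0.88, -0.01 and 0.38 for the EHF regions and 0.57, 0.22 and 0.85 for the CDX1 regions. The counts themselves were modest: the USP36 region held 19, 25 and 20 in EV and 33, 42 and 30 in EHF libraries.

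Of markers of the cell type within 1 kb of a start, epithelial EPCAM had 3 regions with 8 to 118 counts per library, KRT8 4 regions with 6 to 78, and KRT18 1 region with 0 to 26. CDH1 had no region. Of other cell types, the leukocyte marker PTPRC and the endothelial marker PECAM1 had none, and the fibroblast collagen gene COL1A1 had 2 regions with 6 to 33 counts.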

How the data were processed

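ATAC-seq libraries of 4 HCT116 lines were analysed, 3 per line. The authors aligned reads to hg38 with Subread 2.0.0, called peaks with HOMER 4.7 and counted with featureCounts 2.0.0, as given in the submitters' processing notes and the paper's methods. The deposited counts are whole reads per region, not normalised, and were tested as such. The deposited log2 CPM values per library were not tested. Duplicate removal and read shifting are not given in the sources used here. Groups were taken from sample titles, E-C being read as EHF plus CDX1.

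Members and gene lists were chosen with earlier results of these data known. All 12 libraries entered 1 fit in edgeR 4.0.16 (R 4.3.3, TMM, robust quasi-likelihood) after keeping regions at 3 CPM in 1 library. Other tools were limma 3.58.1, DESeq2 1.42.0, scipy 1.17.1 and blastn 2.17.0, which marked 193 regions with at least 40 bases matching mitochondrial DNA at 80% identity. In simulated EHF+CDX1 against EV counts over 30144 regions, 114 of 200 4-fold changes were recovered (78 of 100 rises, 36 of 100 falls), with 3 false of 117 calls. The simulation left out the member regions and used a single dispersion of 0.1. Its changed regions had a median mean count of 22.0, so it does not give power for the member regions or for regions with fewer counts. The text names all member, flanking and related regions, and the 3 regions most correlated with each gene over 12 libraries (pseudocount 1).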

Additional observations from a re-analysis of the deposited data

How the results depend on the processing

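In EHF+CDX1 against EV, 7 to 8 EHF regions and 2 to 3 CDX1 regions were called under each of 20 alternatives. Over all regions these alternatives called 44 to 1711. Against the single lines, EHF regions called in EHF+CDX1 against EHF numbered 7 with limma voom, and CDX1 regions called against CDX1 numbered 1 with library size scaling and 2 with limma voom. Leaving out libraries gave 0 to 2 of the latter and 0 of the former. EHF regions called in EHF against EV numbered 1 with TMM without member and mitochondrial regions, 7 with library size scaling and 8 with DESeq2, limma voom or no robust option, and 0 to 8 with libraries left out. Over all regions these settings, in the same order, called 1, 7, 9, 19 and 10, and 0 to 16 with libraries left out. CDX1 regions called in CDX1 against EV numbered 3 with library size scaling, DESeq2, limma voom and no robust option, and 0 to 3 with libraries left out. Over all regions these settings, in the same order, called 6, 3, 4 and 3, and 0 to 3 with libraries left out. The flanking and the CDX2 region each gave 0 calls with library size scaling and with DESeq2, and 0 to 1 with libraries left out. The causes were not tested. The CDX1 difference of EHF minus EV was -0.11 (log2) without mitochondrial matches, -0.32 on start-site regions only and -0.21 on TMM sizes, and -0.63 to 0.98 with libraries left out. The log2 ratio of EHF to CDX1 was 0.57, and 0.12 on the most counted regions. Over all regions, calls in EHF+CDX1 against EV numbered 776 with edgeR, 97 with DESeq2 and 44 with library size scaling, in EHF+CDX1 against EHF 1311, 152 and 415, and in EHF+CDX1 against CDX1 783, 80 and 309.

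With the replicate block, 8 EHF regions were called in EHF+CDX1 against EHF and 3 CDX1 regions in EHF+CDX1 against CDX1, all lower, and 8 and 3 were called higher in the single lines against EV. Over all regions the block called 1796, 1243, 66 and 6 in these 4 comparisons, against 1311, 783, 3 and 0 without it. The EHF+CDX1 dose was below that of the single line of the same number in 3 of 3 pairs for either gene. Same-number pairs of libraries correlated at a median r of 0.088 (-0.01 to 0.30), and 5 of 18 were above 0.1. Pairs of different number had a median r of -0.057, and 0 of 36 were above 0.1. Each of the 12 libraries correlated best, on average, with its own number. In the titles, libraries of the same number carry consecutive sample numbers. No label says that a number marks a shared batch, so the main fit did not pair by it. Whether the numbers pair the libraries is not settled. The paired dose differences had exact permutation p of 0.25 each, the smallest that 3 pairs allow. Low depth limits the trace, flanking and related regions, which held at most 63 counts per library.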
